A study of Mus musculus with 18 samples.

Results

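The liver binding sites of BMAL1 were described from a single list of 4813 peaks, which is every peak of the liver list and 4813 of the 11366 peaks in the lists of the 3 tissues studied. The list rests on 3 ChIP libraries and 3 input libraries of liver from wild-type C57BL/6 mice aged 3 to 6 months, with 3 mice per tissue and no transgene or deleted allele in any group. The mice were held in a cycle of 12 h light and 12 h dark, and tissues were taken at ZT06, which is 6 h after the lights came on. Per the series' design text, all liver ChIP and input libraries were combined before peaks were called, so no value exists per animal and none of the values below has an error between mice. Kidney and heart of the same mice, with 3 ChIP and 3 input libraries each, enter only for comparison. For heart, the input libraries have a source label that reads kidney while their titles read heart, so heart values may rest on another input. Whole liver holds several cell types, and a peak list does not show in which of them a site was bound.

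BMAL1 is a basic helix-loop-helix PAS protein that pairs with CLOCK and activates genes by binding E-boxes, of which CACGTG is the classical form. Among its targets are the Per and Cry genes, whose proteins inhibit the CLOCK and BMAL1 pair, and the Nr1d genes, whose products (REV-ERB alpha and beta) repress Arntl, the gene of BMAL1. In liver the clock is known to pace glucose release, lipid handling and detoxification.

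Each peak was 242 bp wide and carried a whole-number score from the authors, whose scale is not given in the sources used here. The score served only to rank peaks within the list, with equal scores sharing a rank. Scores ran from 17 to 389 with a median of 40, and 464 peaks (9.64%) scored 100 or more, 46 scored 200 or more and 7 scored 300 or more. The read depth behind them is unknown. Each peak was assigned to the nearest protein-coding gene of RefSeq (GRCm38.p6) within 50 kb of the peak centre, with a distance of 0 inside a gene. This gave a gene to 4421 peaks (91.9%, exact Clopper-Pearson 95% interval 91.0 to 92.6%, counting error only) and left 392 without one. The assigned peaks fell to 3227 of 21887 protein-coding genes (14.7%). Assignment names a neighbour and does not show which gene a site acts on.

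The promoters under high-ranking peaks show what the sites look like at the base level. The stretches printed here come from the 12 highest-ranked liver peaks that could be read for at least 80 of the 120 central bases from RefSeq promoter sequences and outside every annotated gene body. Of these 12 stretches, 6 held CACGTG, which is in capitals, and Nptn held it at 2 places. They are written 5′ to 3′ on the strand of the gene, with GRCm38.p6 positions.
Serf2, chr2:121449112-121449197, plus strand: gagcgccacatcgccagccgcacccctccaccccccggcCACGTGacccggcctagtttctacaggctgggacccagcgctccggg
Zfp292, chr4:34882984-34883066, minus strand: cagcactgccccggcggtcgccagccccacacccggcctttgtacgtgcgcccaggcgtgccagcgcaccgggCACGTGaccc
Bnip3, chr7:138909536-138909655, minus strand: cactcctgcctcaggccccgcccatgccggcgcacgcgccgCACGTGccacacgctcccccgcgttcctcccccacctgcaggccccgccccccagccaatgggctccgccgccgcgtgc
Klf11, chr12:24651133-24651252, plus strand: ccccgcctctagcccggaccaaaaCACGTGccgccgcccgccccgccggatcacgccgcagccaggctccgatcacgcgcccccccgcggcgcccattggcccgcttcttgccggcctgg
Bhlhe41, chr6:145865496-145865615, minus strand: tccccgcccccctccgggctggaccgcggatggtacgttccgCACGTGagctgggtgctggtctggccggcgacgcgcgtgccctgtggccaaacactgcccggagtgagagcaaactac
Nptn, chr9:58582065-58582184, plus strand: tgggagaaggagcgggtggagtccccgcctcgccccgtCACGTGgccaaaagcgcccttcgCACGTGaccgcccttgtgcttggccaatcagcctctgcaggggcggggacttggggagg
In these 6 stretches the nearest CACGTG lay 5 to 32 bp from the peak centre. The genes differ widely in role. Bhlhe41 encodes DEC2, a repressor that itself binds E-boxes (rank 68 of 4813), Klf11 a Krüppel-like factor (rank 63), Bnip3 a mitochondrial protein of mitophagy (rank 33), Nptn the cell adhesion protein neuroplastin (rank 76), and Serf2 and Zfp292 shared rank 29. Other peaks of similar rank had no CACGTG in the stretch read. The 3 highest-ranked of these lay at Slc27a2, which encodes a fatty acid transport and very-long-chain acyl-CoA synthetase protein (rank 27), Mapk6, an atypical MAP kinase gene (rank 33), and Cry2 (rank 39).
Slc27a2, chr2:126552878-126552997, plus strand: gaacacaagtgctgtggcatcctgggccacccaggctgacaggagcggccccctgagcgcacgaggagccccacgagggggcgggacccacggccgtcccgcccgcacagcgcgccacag
Mapk6, chr9:75410072-75410183, minus strand: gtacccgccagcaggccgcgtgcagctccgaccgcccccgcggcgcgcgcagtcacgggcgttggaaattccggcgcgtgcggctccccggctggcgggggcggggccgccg
Cry2, chr2:92434127-92434246, minus strand: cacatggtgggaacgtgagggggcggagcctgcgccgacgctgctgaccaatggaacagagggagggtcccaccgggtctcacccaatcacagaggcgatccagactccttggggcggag
The Cry2 stretch held 1 match to CACGTT, counted on both strands, an E-box variant of clock genes. A missing match says only that these letters are not in the bases read.

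The same letters were counted in promoter windows of 300 bases, from 250 before to 50 after each listed start. RefSeq windows were at hand for 17492 of the 21887 protein-coding genes and gave 21238 different windows, of which a liver peak overlapped 896 (4.22%). CACGTG was found in 353 of these 896 windows (39.4%, exact 95% interval 36.2 to 42.7%), against 7.84% of all windows. In the 20342 windows without a liver peak it was found in 6.44% (6.11 to 6.79%). The windows with a peak were richer in G and C, with a median of 65.7% against 56.0%. Within the middle part of that range, 60.0 to 71.3% GC, the shares were 42.7% with a peak (196 of 459) and 8.88% without (515 of 5797). The variant CACGCG was found in 34.8% of windows with a peak and 12.1% of all windows, and within the same GC range in 38.1% with a peak and 19.2% without. CACGTT was found in 8.82% of windows with a peak and 4.68% of all. CAGCTG, an E-box of other bHLH factors, was found in 13.8% against 15.6% of all windows, and within the same GC range in 14.8% against 15.9%. The D-box letters TTATGTAA or TTACGTAA were found in 1.12% against 1.03%, the nuclear receptor letters AGGTCA in 14.2% against 14.7%, and CCAAT in 38.5% against 38.2% of all windows. Within the same GC range, CCAAT was found in 44.4% of windows with a peak (39.8 to 49.1%) and 35.8% of those without (34.5 to 37.0%). There AGGTCA was found in 13.3% with a peak (10.3 to 16.7%) and 10.6% without (9.83 to 11.4%), and these intervals overlap. The letters TGTTTAC were found there in 3.92% with a peak (18 of 459, 2.34 to 6.13%) and 1.6% without (93 of 5797, 1.3 to 1.96%). All motifs were searched on both strands, and none of these shares was tested, since windows of a gene can overlap and share a peak.

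The share with CACGTG was lowest under the lowest-ranked peaks. Split into 3 groups by the rank of the best overlapping peak, the windows held it in 50.2% of cases in the upper group (152 of 303, 44.4 to 55.9%), 40.7% in the middle group (122 of 300) and 27.0% in the lower group (79 of 293, 22.0 to 32.4%). The intervals of the upper and lower groups do not overlap, and the lower group still stood above the 7.84% of all windows. CAGCTG showed no such order, with 13.9, 12.7 and 15.0%. In the 468 peaks whose central 100 bases could all be read, CACGTG was present in 182 (38.9%). By rank, these 468 peaks held it in 46.2% of the upper group (72 of 156), 46.8% of the middle group (73 of 156) and 23.7% of the lower group (37 of 156), so here the upper and middle groups showed no order. It was present in 48.9% of those found in kidney and heart too (65 of 133, 40.1 to 57.7%), in 44.0% of those found in 1 other tissue (80 of 182) and in 24.2% of those found in liver only (37 of 153, 17.6 to 31.8%). Rank moves with this split, and its part in it was not tested. CACGTG followed or preceded at 6 or 7 bases by NACGTG or CACGTN, a paired arrangement that contains CACGTG by construction, occurred in 3 of 896 windows with a peak and 4 of 20342 without. The 3 were at Lamp1 (rank 244), Usp4 (rank 554) and Tulp4 (rank 680), named after their values were seen.

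Around the peak centres the matches formed a sharp summit. Within 50 bp of the centre, CACGTG began at 4.72 per 1000 positions read (289 of 61236), and 100 to 300 bp away at 0.38 per 1000 (50 of 131653). CACGCG fell from 3.12 to 0.858 per 1000 and CAGCTG from 0.67 to 0.517 per 1000. Near and far positions come from partly different promoters, since a window can lie to one side of a peak centre, and the part of base composition was not tested.

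**Figure D1:**
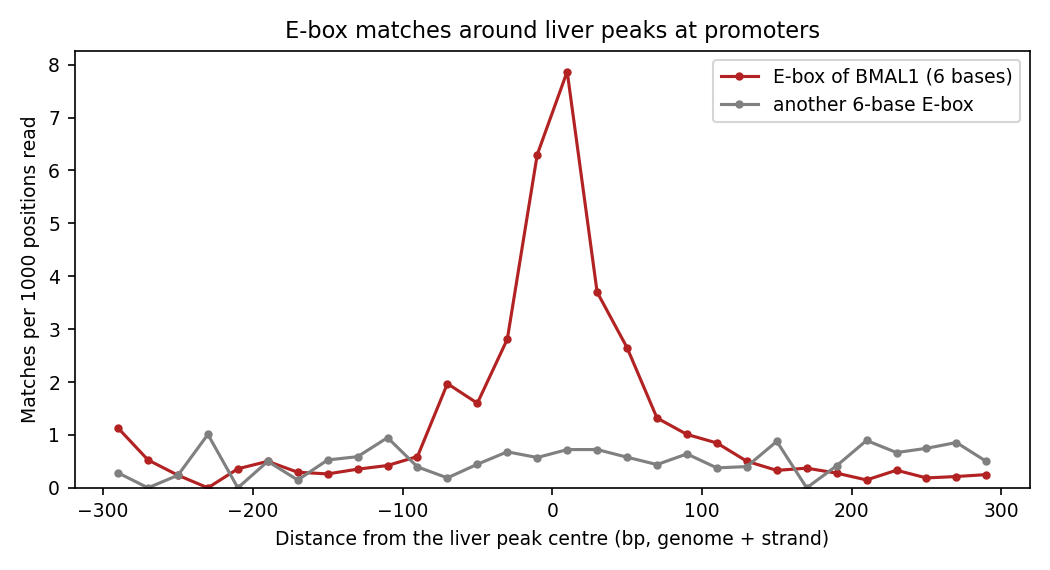
Matches per 1000 positions read, in 20 bp bins by distance from the liver peak centre, for CACGTG (red) and CAGCTG (grey) in promoter windows. CACGTG reaches 7.87 per 1000 in the bin just right of the centre, while CAGCTG stays at or below 1.01 in every bin.

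The 25 highest-ranked peaks had scores from 236 to 389. Of these 25 peaks, 13 were assigned to 10 genes of a list of 20 clock genes and outputs, 11 to other genes and 1 to none. In all, 21 genes held them. Nr1d1 held ranks 1, 7 and 12, with scores of 389, 306 and 277, and Nr1d2 rank 2 with 345. The peak of rank 1 lay 8119 bp upstream of Nr1d1, inside the lncRNA gene Gm31862. Dbp, whose product activates genes through D-boxes, held ranks 3 and 5, and its relatives Tef and Hlf ranks 8 and 11. The Hlf peak lay 27185 bp upstream of the gene (chr11:90417982-90418223), the farthest of the assigned peaks in this group. Per1 held rank 4 with a score of 318, at 216 bp from the gene (chr11:69094772-69095013). Bhlhe40, the gene of the E-box repressor DEC1, held rank 14 (chr6:108659342-108659583), Ciart, whose product inhibits CLOCK and BMAL1, rank 18 (chr3:95882182-95882423), Cry2 rank 19 and Per3 rank 25 (chr4:151044548-151044789). The Per3 peak centre lay 3 bp from a listed start. In the top 100 peaks, 23 were at genes of the clock list. Over the whole ranking, the genes of this list held 43 of the 4421 assigned liver peaks. The clock list was set up with earlier results of these data known.

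The other genes at the top are not parts of the clock loop. Klf9, which encodes a Krüppel-like factor, shared rank 5 with a score of 315, 5404 bp upstream of its listed start (chr19:23135702-23135943). Fbxl22, the gene of an F-box protein, held rank 9 (chr9:66511726-66511967) and Jade1, which encodes a subunit of a histone acetyltransferase complex, rank 13 at 169 bp after its start (chr3:41564929-41565170). Tbcel shared rank 16 and lay 32 bp before its start (chr9:42472150-42472391). Pcbp1, the gene of an RNA-binding protein, held rank 23 and Gnpnat1, which encodes an acetyltransferase of hexosamine synthesis, rank 24 (chr14:45388785-45389026). Ripor3 held rank 15 (chr2:168003543-168003784), Gm46592 shared rank 16, 1810013L24Rik held rank 20, and Nav2 and Fgd2 shared rank 21. Rank 10 (chr5:148995196-148995437, score 283) had no protein-coding gene within 50 kb. Hmgb1, the nearest, was 51386 bp away, and the peak lay inside the lncRNA gene Gm15411.

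Most of these strong liver sites were also peaks elsewhere. Of the 25, 21 overlapped peaks of both other tissues, by at least 1 bp. The peak in Ripor3 overlapped a kidney peak of rank 735 and no heart peak. The peaks near Gm46592, in Nav2 and near Fgd2 overlapped neither. By position, 12 of the 25 lay inside a protein-coding gene and 10 within 1 kb of a listed start. Whether an inside peak was exonic or intronic was not analysed here. Some names depend on the gene set, since with genes of any type Bhlhe40, Ciart, Cry2, Klf9 and Tbcel give way to non-coding neighbours that contain the peak.

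**Figure D2:**
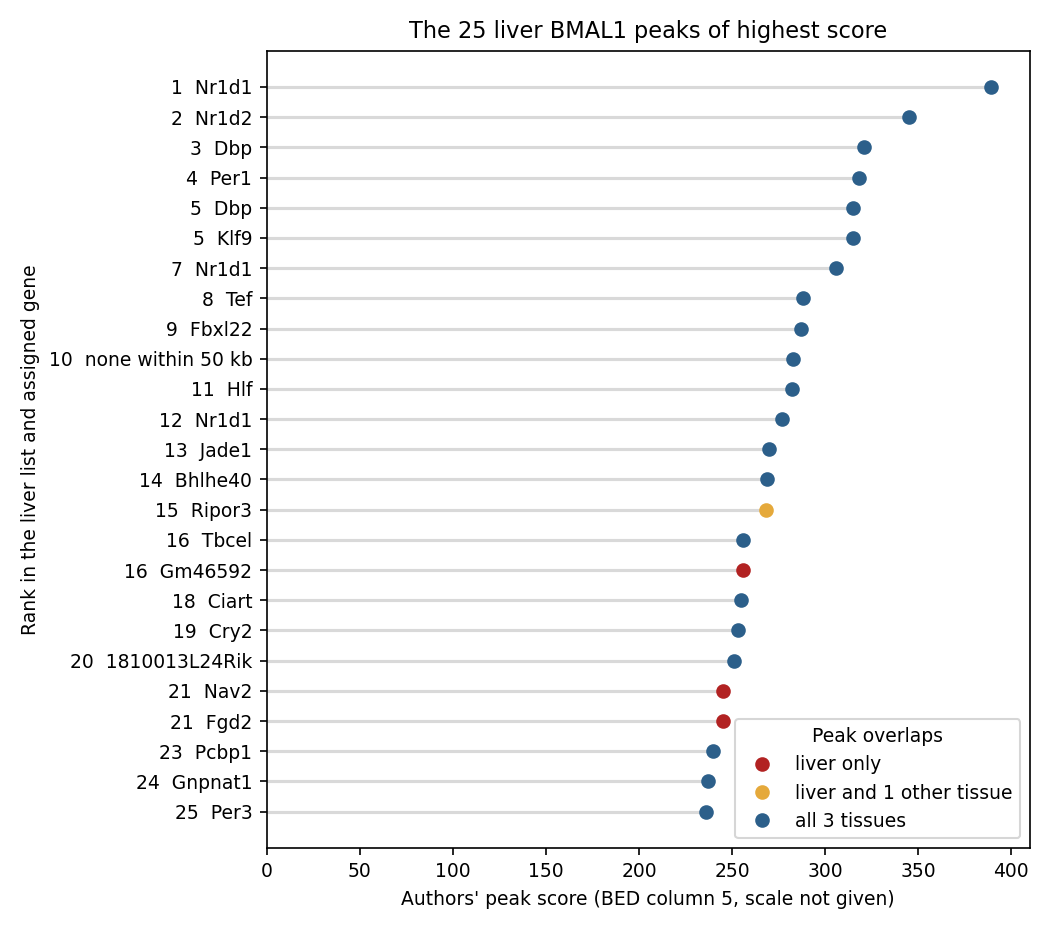
Authors' score of the 25 highest-ranked liver peaks, labelled by rank and assigned gene and coloured by overlap with kidney and heart peaks. The scores fall from 389 at Nr1d1 to 236 at Per3, and the 3 liver-only peaks sit between 245 and 256.

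Along the ranking, where peaks lay changed more than whether they were in a gene. In all, 2839 peaks had their centre inside a protein-coding gene (59.0%, 57.6 to 60.4%), and the share was between 54.4 and 63.6% in each of 10 equal groups by rank. Of the 4669 peaks on chromosomes with listed starts, 1142 lay within 1 kb of one (24.5%, 23.2 to 25.7%) and 435 within 100 bp. None is listed on chromosome 18. Since starts of 4395 genes are not listed, these shares can only be too low. Peaks within 1 kb lay upstream in 59.4% of cases (678 of 1142). In the highest of these groups, with scores from 99 to 389, 46.8% lay within 1 kb of a start (42.3 to 51.4%), and in the lowest, with scores from 17 to 20, 8.53% did (6.14 to 11.5%). Peaks over 10 kb from any listed start rose from 37.4 to 75.9% between the same groups. Because of the starts not listed, these 2 shares can only be too high. Overlap with a kidney or heart peak went from 82.8% in the highest group to 5.41% in the lowest. The overlap was 80.1% for kidney and 56.4% for heart in the highest group, and 4.16 and 2.29% in the lowest.

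**Figure D3:**
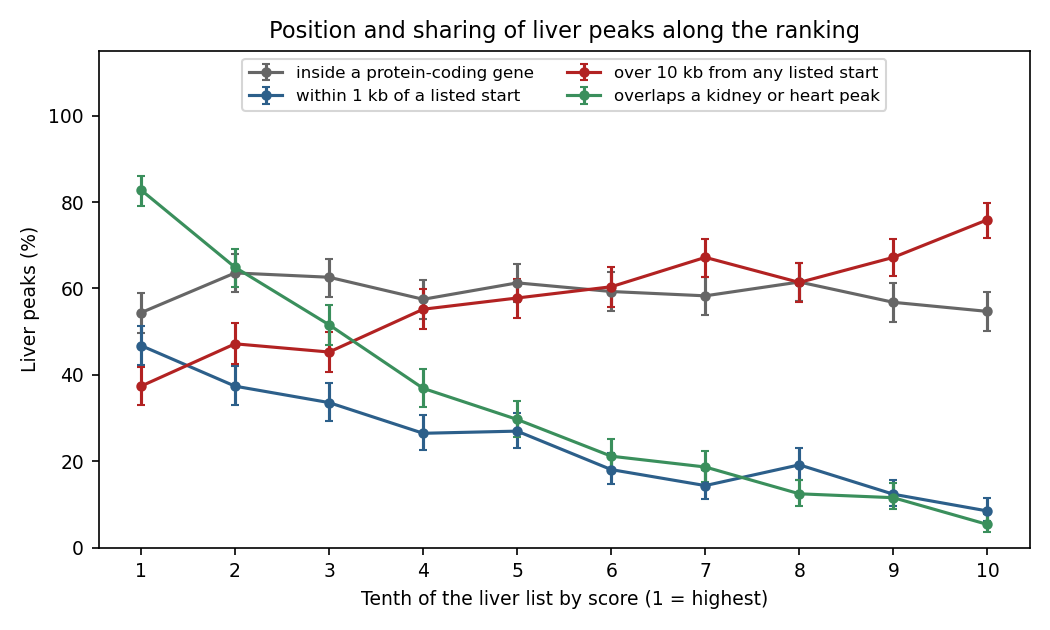
Share of liver peaks in each of 10 equal groups by score (1 is the highest), with exact 95% intervals as bars, for position inside a gene, within 1 kb of or over 10 kb from a listed start, and overlap with a kidney or heart peak. The share inside genes stays between 54.4 and 63.6% while the share near a start falls from 46.8 to 8.53%.

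At the low end, 150 peaks shared the lowest score of 17, among them one inside Vegfd and others nearest to Nolc1 and Nkx2-3. At the limit of 50 kb, peaks nearest to Azin1 (49929 bp, score 66), Gpc5 (49914 bp, score 66) and Cstad (49717 bp, score 43) were just assigned. Peaks nearest to Bdh1 (50328 bp, score 57), Zfp648 (50867 bp, score 62) and Igfbp2 (51030 bp, score 40) were just left out.

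Most genes with a liver peak had 1. A single peak was assigned to 2448 genes, 2 peaks to 526, 3 to 148, 4 to 68 and 5 or more to 37. The 253 genes with 3 or more peaks make up 1.16% of protein-coding genes and took 921 of the 4421 assigned peaks (20.8%). Just below that limit, the 2-peak genes with the highest scores were Per1 (318 and 196) and Cry2 (253 and 212). Long genes were common among the 253. Their median length was 86.9 kb, against 43.0 kb for genes with 2 peaks, 29.9 kb for genes with 1 and 17.2 kb for all protein-coding genes. Of genes over 100 kb, 4.69% had 3 or more liver peaks (114 of 2429, 3.89 to 5.61%), and of genes up to 20 kb 0.338% (40 of 11849). The best peak of the 253 genes was in the upper 10% of the list in 35.2% of cases (89 of 253, 29.3 to 41.4%), against 16.0% of genes with 2 peaks and 10.3% of genes with 1. The best of several peaks is more often high by construction, so no difference in rank is read from this order. Their lowest peak had a median score of 25, below the list's median of 40.

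Gse1 held the most peaks, 9, spread over 334 kb of chromosome 8 with scores from 25 to 106, and 7 of them were in liver only. Hlf held 7 peaks within 54.3 kb, with scores of 31, 87, 40, 81, 62, 162 and 282 in genome order, the last of them at the far upstream site, and 5 of them overlapped a peak of another tissue. Fgd2, which encodes an activator of the GTPase Cdc42, also held 7, with scores of 100, 245, 122, 32, 64, 76 and 47. All 7 lay downstream of the gene, 5382 to 43751 bp from it, and 6 were in liver only. Nav2, the gene of a cytoskeleton-associated protein, held 7 inside a gene of 651 kb, with 1 of score 245 and the others from 24 to 67.

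Ppara held 7 peaks within 58.4 kb. It encodes the nuclear receptor that drives fatty acid oxidation in fasting liver. The scores in genome order were 31, 63, 50, 152, 33, 108 and 50, so the highest lay 154 bp before a listed start and the next 35647 bp after one. The peak of score 152 overlapped a kidney peak and the other 6 overlapped none. Ppara had 3 kidney peaks and no heart peak of its own. Arid1b, a subunit gene of the SWI/SNF chromatin remodeller, and Mical3, an actin-regulating monooxygenase gene, held 7 each with best scores of 83 and 80.

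With 6 peaks followed Zmiz1, which encodes a transcriptional coregulator (best score 112), the nuclear factor I genes Nfix (107) and Nfia (59), and Pitpnc1, which encodes a phosphatidylinositol transfer protein (38). All 6 Pitpnc1 peaks scored below the list's median of 40. With 5 peaks came Hes1, a Notch-target repressor gene of 2.44 kb. Its peaks scored 41, 23, 180, 126 and 104, and the last 3 lay within 1064 bp of the gene or inside it. Dgat2, the gene of the last enzyme of triglyceride synthesis, had scores of 37, 52, 118, 98 and 151, the last 317 bp outside the gene.

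The other genes of this group had 5 peaks each. They were Dis3l2, a 3′ exoribonuclease gene (best score 143), Slc7a2, a cationic amino acid transporter gene (137), Aspg, an asparaginase gene (124), Tns1, a focal adhesion gene (115), the coactivator gene Ppargc1b (105), the Krüppel-like factor gene Klf13 (104) and Sipa1l2 (99). Slc7a2 had no kidney or heart peak at all. Tns1 stood at the other end, with 12 kidney peaks. The 5 Klf13 peaks scored 61 to 104, and each overlapped a peak of another tissue.

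**Figure D4:**
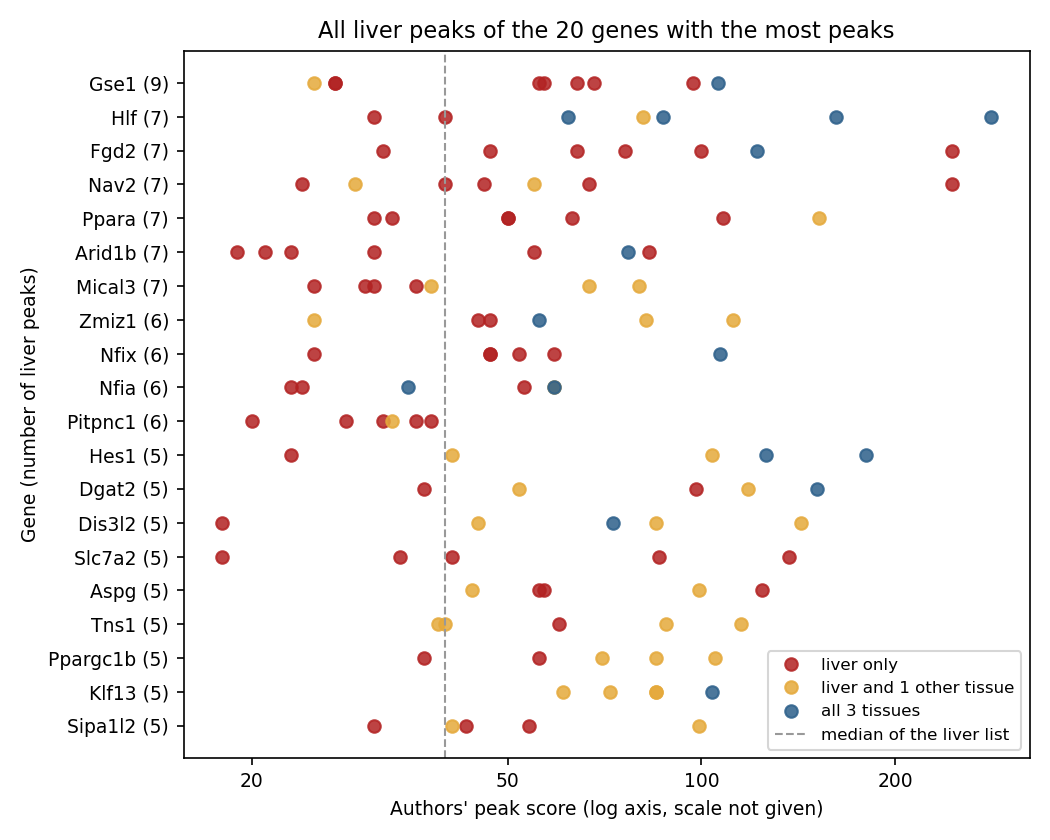
Authors' score (log axis) of every liver peak of the 20 genes with the most liver peaks, coloured by overlap with kidney and heart peaks, with the median of the liver list as a dashed line. Hlf, Fgd2 and Nav2 each have 1 peak of 245 or more, and all 6 Pitpnc1 peaks lie under the median of 40.

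Some of the genes with many liver peaks had many in the other tissues too. Of the 253 genes, 52 had 3 or more kidney peaks (20.6%, 15.7 to 26.1%), which is 38.8% of the 134 genes with 3 or more kidney peaks (0.612% of protein-coding genes). For heart it was 15 of 253 (5.93%), which is 37.5% of 40 genes (0.183%). The lists differ in length, with 4034 kidney and 2519 heart peaks, and with 2519 top peaks from each the kidney share was 26.3% (25 of 95). At least 1 kidney peak was assigned to 70.0% of the 253 genes and at least 1 heart peak to 45.8%, against 44.1 and 25.7% of genes with a single liver peak and 13.9 and 9.5% of all protein-coding genes. Gene length follows the same order, with medians of 86.9, 29.9 and 17.2 kb, and its part was not tested. Genes with 3 or more peaks in each of the 3 lists numbered 12. Nr1d1, Dbp, Klf9, Tef, Hlf, Bhlhe40, Bhlhe41, Hes1, Usp2, Tns1, Klf13 and Itpr1 made up this group, of which Bhlhe41, Usp2 and Itpr1 were named after their values were seen.

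Of the 253 genes with 3 or more liver peaks, 57 had neither a kidney nor a heart peak. The share with neither was not counted for genes with fewer liver peaks. Of genes with a single liver peak, 44.1% had a kidney peak and 25.7% a heart peak, against 70.0 and 45.8% of the 253. Lacking both is therefore not read as a trait of genes with many liver peaks. Among the 57, those with the most peaks were Slc7a2, Slc38a4 and Lifr with 5 each. Slc38a4 encodes an amino acid transporter and Lifr the receptor of leukemia inhibitory factor, and both were named after their values were seen. Of the function lists, Gys2, Slc2a2, Onecut1, Onecut2, Cps1, Mat1a, Foxa2, Igfbp2 and Nr0b2 also belonged to the 57, and they too were picked out after the fact. Their best scores ran from 146 at Gys2 to 23 at Foxa2. All peaks of Igfbp2, Mat1a and Foxa2 scored 33 or less. Few liver peaks of such scores overlapped a kidney or heart peak at all. The share was 18.7% in the group by rank with scores of 29 to 33, and 5.41% in the lowest group. Peaks of the 253 genes were in liver only in 70.2% of cases (647 of 921, 67.2 to 73.2%), against 61.8% of the peaks of single-peak genes (59.8 to 63.7%). No test over animals exists for these differences, and they move with the rank of the peaks.

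Genes of liver pathways were followed through lists that were set up with earlier results of these data known, so their counts describe the lists and support no direction. A gene was counted when a liver peak was assigned to it, as for 14.7% of all protein-coding genes and 19.4% of those of 20 to 100 kb. A gene without an assigned peak can still have one within 50 kb that lies nearer to another gene. Of the clock list, 17 of 20 genes had a peak and 8 had 3 or more, with 43 peaks in all, 9 of them in liver only. The median of their best scores was 253, against 44 over all genes with a peak. Arntl, Clock and Npas2, the genes of BMAL1, CLOCK and their relative, had none in liver, while Arntl had 1 kidney and 1 heart peak and Clock 1 heart peak. Rora, the gene of a nuclear receptor that activates Arntl, had 5 peaks with scores of 58 (rank 1408), 31, 23, 17 and 17.

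Glycogen and glucose genes had peaks as often as clock genes, at lower ranks. Of 20 genes, 17 had a liver peak and 8 had 3 or more. Pfkfb3, whose enzyme makes the activator of phosphofructokinase, had 4 peaks with a best rank of 41 and scores of 207, 79, 31 and 27. Ppp1r3c, which encodes a subunit that brings a phosphatase to glycogen, had 4 peaks near a gene of 4.87 kb, with scores of 191, 148, 75 and 41. Pfkl, the liver phosphofructokinase gene, had 1 peak of score 165. Gys2, the gene of liver glycogen synthase, had 3 peaks of 146, 136 and 44, all in liver only. Gbe1, the glycogen branching enzyme gene, had 3 peaks of 123, 61 and 60, none in liver only. In total 24 of the 40 peaks of this list were in liver only, beside 66.5% of all liver peaks.

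Genes of hepatocyte transcription factors carried mostly liver-only peaks. Of 20 genes, 15 had a peak and 8 had 3 or more, and 35 of their 43 peaks were in liver only, against 9 of 43 for the clock list and 66.5% of all liver peaks (3199 of 4813). The 2 lists differ in rank, with median best scores of 72 and 253. Overlap with another tissue fell from 82.8% in the highest of the 10 groups by rank to 5.41% in the lowest. The part of rank in this difference was not tested. A peak in the upper 10% of the list was assigned to 3 of the 15 genes, where 13.2% of all genes with a liver peak had one (426 of 3227), and the median of their best scores was 72 against 44. Among all genes with 3 or more peaks this median was 77, with 35.2% in the upper 10%, and with 2 peaks 55 and 16.0%. No raised rank of the list is read from these values. The best-ranked of the 15 genes was Ppara (above), followed by Hnf4a, a central nuclear receptor of hepatocyte identity, with scores of 140, 28 and 22. Nr2f2 had 116 and 68, Mlxipl, which encodes the glucose-responsive factor ChREBP, 95 and 61, and Cebpa 90, 44, 40, 35 and 34. The 5 Cebpa peaks all lay on one side of a gene of 2.64 kb, outside it. Kidney peaks were assigned to 9 of the 20 genes and heart peaks to 2.

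In insulin, growth factor and glucocorticoid signalling, 14 of 20 genes had a peak and 6 had 3 or more, at a median gene length of 69.9 kb. After Per1, which this list also holds as a glucocorticoid target, the best ranks were those of Foxo3 (rank 60, scores 187 and 112), the PI3-kinase subunit gene Pik3r1 (138 and 33) and Irs2, the gene of the main insulin receptor substrate of liver, with 5 peaks of 98, 68, 55, 49 and 33. Tsc22d3, a glucocorticoid-induced gene, had 95, 77 and 27. All 5 Irs2 peaks lay outside the gene.

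Lipid and cholesterol genes had a peak in 9 of 20 cases. Insig1, whose product holds back SREBP activation, ranked best with 4 peaks of 163, 64, 50 and 17. Angptl4, a secreted inhibitor of lipoprotein lipase, had 118 and 31, Insig2 111 and 21, the phosphatidate phosphatase gene Lpin1 110, 44 and 22, and Srebf1 a single peak of 70. Of amino acid and urea cycle genes, 12 of 20 had a peak, led by the alanine aminotransferase gene Gpt (139), the arginase gene Arg1 (115), Ass1 (112 and 22), Cth (64) and Got1 (61).

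The remaining lists had fewer. Their genes were short, with median lengths of 15.0 kb for bile acid, heme and xenobiotic genes, 21.2 kb for NAD and sirtuin genes and 10.2 kb for plasma protein genes. Of all protein-coding genes up to 20 kb, 9.2% had a liver peak, and the part of length was not tested. Bile acid, heme and xenobiotic genes had a peak in 7 of 20 cases. Por, the gene of the electron donor of microsomal P450 enzymes, had 4 peaks of 109, 100, 65 and 37, the ferrochelatase gene Fech 91, Alas1, the gene of the first enzyme of heme synthesis, 70, and the xenobiotic receptor gene Nr1i2 53. Ahr and Ces2a had 22 each, and Cyp7a1 had none assigned. NAD and sirtuin genes had a peak in 5 of 16 cases, all single, with Nampt, the gene of the rate-limiting salvage enzyme, at rank 117 (score 158, 124 bp from the gene), then Parp1 (108), Sirt1 (76), Nmrk1 (43) and Nmnat3 (24). Plasma protein genes had a peak in 6 of 16 cases, each single and in liver only, with Alb (67), Fgb (50), Ahsg (40), Trf (37) and Itih1 (27) ranked best, and none reached the upper 10%.

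Genes that mark liver cell types were counted in the same way. Peaks were assigned to 6 of 10 hepatocyte markers, led by Hnf4a, to 1 of 7 endothelial markers (Stab2, score 30), and to none of 7 stellate and none of 7 Kupffer cell markers. Binding near a gene is not its expression, and no RNA was measured in these libraries, so the make-up of the tissue was not checked.

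**Figure D5:**
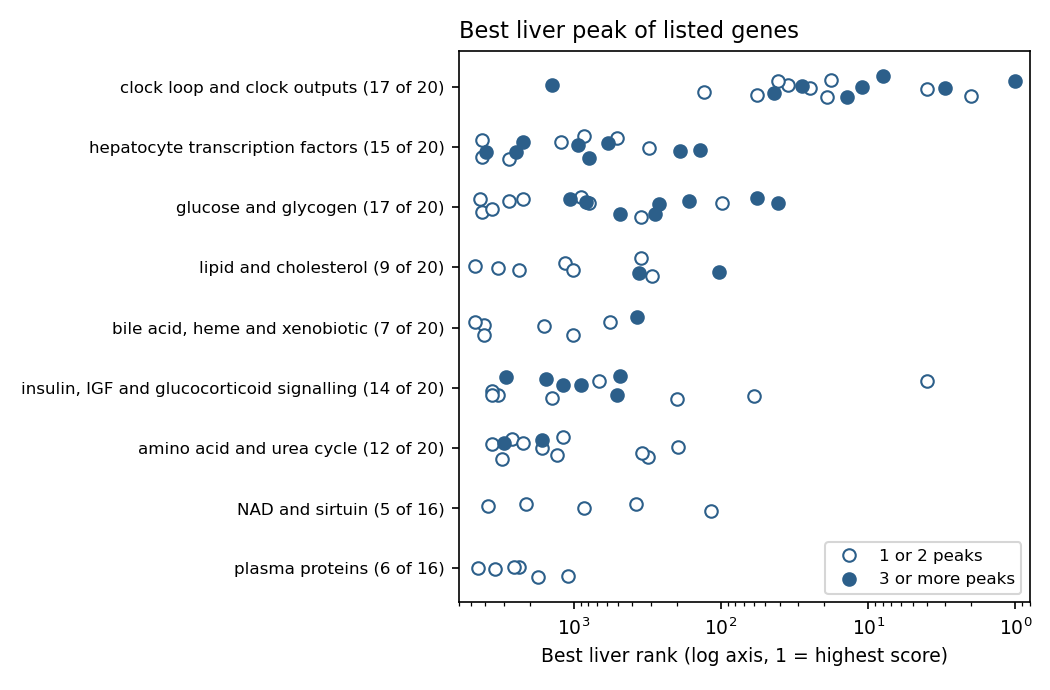
Rank of the best liver peak (log axis) of each gene with a peak in 9 function lists, filled where the gene has 3 or more liver peaks, with the count of genes with a peak beside each list. Clock genes reach ranks 1 to 131 except Rora at 1408, and plasma protein genes start at rank 1095.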

How the data were processed

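BMAL1 ChIP and input libraries of liver, kidney and heart were made from fixed chromatin and grouped by title. The peak lists are mm10 BED files made, per the submitters' processing notes, with Bowtie2, SAMtools and HOMER; versions and filters: not given in the sources used here. The score that the authors deposited for each peak has no stated scale, and replicates were pooled, per the labels. Peaks were ranked by score, and centres were assigned to RefSeq genes of GRCm38.p6 (the build also called mm10); a peak inside several genes went to the one with the nearer end. No reference genome was used here, so motifs were read from RefSeq promoter windows rather than whole peaks, as one planned form of that result allowed. Assignment, overlap and start distances were tested on simulated peaks. Python 3.11.15, pandas 2.3.3 and scipy 1.17.1 were used.

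Named genes were those of the 25 highest peaks, the 20 genes with the most peaks (ties by best score), the 5 best-ranked genes of each list and peaks at the limits of the rules; exceptions are stated, and a few results are not reported here. The members and lists were chosen with earlier results of these data known. No test was run, because 1 pooled list per tissue leaves no replicate. Shares have exact 95% intervals that cover counting error only. Alternatives changed the distance limit, gene set, score threshold and site definition.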

Additional observations from a re-analysis of the deposited data

How the results depend on the processing

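No paired analysis was possible because the replicates were pooled before peaks were called, and for the same reason no replicate could be left out. The 91.9% of liver peaks with an assigned gene became 80.5% within 10 kb, 84.6% by distance to the nearer gene end, 98.8% with genes of any type and 94.5% in the upper 50% of the list. The 253 genes with 3 or more peaks became 92 in the upper 50% of the list, all among the 253, and 191 to 229 under the other 4 alternatives. With genes of any type 160 of the 253 stayed. The 21 genes of the top 25 ranks became 19 to 23, of which 16 to 20 were among the 21. The 35.2% of genes with 3 or more peaks that lead the list became 19.0% for the upper 5% by score. The 59.0% of peaks inside genes became 67.8% with genes of any type and 70.9% with genes extended by 1 kb. The 20.6% with 3 or more kidney peaks became 26.3% with lists of equal length and 70.0% for 1 or more kidney peaks. The 39.4% of windows with CACGTG became 43.8% in the upper 50% of the list and, in settings chosen after seeing the data, 46.2% for windows holding the peak centre and 42.7% in the middle range of GC. Read depth is unknown, so an unbound site and one below a list's threshold cannot be told apart, nor can the spread between mice be given for any value.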

Other observations

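Liver peaks were sparse on the X chromosome, with 39 peaks, or 4.04 per 100 protein-coding genes. The autosomes ran from 15.3 on chromosome 7 to 29.9 on chromosome 8. The X chromosome was also lowest in kidney and heart, with 4.35 and 2.38 per 100 genes on X against at least 13.2 and 7.93 on every autosome. Numbers of mapped reads per chromosome were not used here, so copy number and mappability could not be set beside these values.

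Of 1005 miRNA hairpins in RefSeq, 121 had a liver peak within 10 kb (12.0%). Hairpins of a cluster can share a peak, as Mir17 and Mir92-1 did (score 66), so the 121 hairpins do not stand for as many sites. The share of other genes under the same rule was not counted, so no excess or lack is read from this value. Mirlet7a-1 and Mirlet7f-1, 2 hairpins of the let-7 family of growth-restraining miRNAs, lay 8506 and 8861 bp from a peak of rank 117 that was assigned to Ptpdc1, and Mir339 had 3 peaks within 10 kb, the best of score 146. These hairpins were named after their values were seen. Of 4793 gaps between neighbouring peaks, 578 were at most 10 kb (12.1%) and 1.71% at most 1 kb. The median gap was 129 kb.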
